A study of Danio rerio with 5 samples.

Results

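Sterol and fatty acid metabolism genes were followed in whole zebrafish larvae after proton irradiation of the embryo. A gene belonged to the group when the array's annotation gave its probe set a single symbol that begins with a name from this metabolism, such as hmgcs1, fdft1, elovl, acsl or cpt2. This choice used symbols and no measured value, though it was made with earlier results of these data known. It took 49 of 8793 named genes, measured by 62 of 15502 probe sets. Of the 49, 9 belonged to sterol synthesis, 9 to the control and transport of sterols, 2 to fatty acid synthesis, 8 to chain elongation and desaturation, 4 to the activation of fatty acids and 16 to mitochondrial oxidation. The remaining gene, ppargc1b, encodes a coactivator of nuclear receptors. Some members share a name with the pathway but not its chemistry, such as stard13b, ldlrad3, whose product carries a domain of the LDL receptor family, and acad8, a dehydrogenase gene of valine breakdown. Genes for HMG-CoA reductase, squalene epoxidase, the LDL receptor, the SREBP factors, fatty acid synthase, the peroxisomal acyl-CoA oxidases and the PPAR receptors were not analysed here. The choice covered their names too, but the annotation gave no probe set a single symbol of theirs. No filter on low values was applied, so all 49 genes were tested. In 5 of them (mvk, ldlrad3, elovl5, acad9 and cpt1a2b) the mean log2 intensity was below 4.69, the lower quartile of all probe sets.

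The larvae were of the AB strain and were collected 7 days after fertilization. The groups were unirradiated controls (0 Gy, 1 array), larvae given 12 Gy of protons (1 array) and larvae given 15 Gy (3 arrays). Protons were delivered at 24 h after fertilization to embryos of wild type pairs, at 8 MeV/u and 7.5 Gy/min, the gray (Gy) being a unit of absorbed radiation dose. Each array received RNA of a pool of 20 animals from a group of 60, and no label says whether the pools at 15 Gy were irradiated separately. The sample titles call the 15 Gy arrays biological replicates. Since separate irradiation is not stated, the p-values speak of the spread between these pools, which may be technical.

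Cells build cholesterol from acetyl-CoA through mevalonate, farnesyl diphosphate and squalene. When sterols are scarce, SREBP factors leave the endoplasmic reticulum and switch on the genes of this route, and Insig proteins hold them back when sterols are plentiful. The same cytosolic acetyl-CoA feeds fatty acid synthesis, whose products are lengthened by Elovl enzymes and given double bonds by desaturases. Acyl-CoA synthetases activate fatty acids for use, and the carnitine shuttle carries them into mitochondria for beta-oxidation. Early larvae live on yolk lipid, and the retina, brain and skin are rich in long-chain lipids.

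The arrays had close median log2 intensities, between 5.95 and 6.03, but differed in a sign of RNA quality. The actin control probe sets had a 5′ to 3′ ratio of 0.0171 in the control, 0.0354 at 12 Gy and 0.129, 0.0350 and 0.108 in replicates 1, 2 and 3 at 15 Gy. The GAPDH control probe sets had a narrower range, with 0.174 in the control, 0.177 at 12 Gy and 0.242, 0.189 and 0.228 at 15 Gy. There was no replicate of the control or of 12 Gy, which limited the precision. Differences were tested with limma on log2 intensities, a linear model that pools information on the spread across probe sets, with p adjusted by Benjamini-Hochberg over the whole array and called at 0.05. Since all residual spread came from the 15 Gy arrays, the lone arrays were assumed to vary as these did. Comparisons with the control shared its single array, which had the lowest 5′ to 3′ ratio for both actin and GAPDH. In larvae measured whole, fewer cells of a type and less RNA per cell cannot be told apart.

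More members were lower than higher after irradiation, and the largest differences lay in a few genes. In limma, 0 of the 49 members passed the adjusted threshold for 15 Gy against control, as did 0% of all genes, and the smallest adjusted p among members was 0.167. At an unadjusted p of 0.05, 11 members were lower (22.4%, against 10.4% of all genes) and 4 were higher (8.16%, against 17.4% of all genes). The 4 were elovl1b, nsdhl, stard13b and stard14. Without 15 Gy replicate 3, these counts became 4 lower and 2 higher. The shares of all genes under that setting are not given here, so the drop cannot be called particular to the members. By position, 23 members lay below the control in every 15 Gy array (46.9%, against 36.5% of all genes) and 11 lay above it in every one (22.4%, against 41.0% of all genes). All of those 23 were below the control at 12 Gy too, as were 2875 of the 3211 among all genes that lay below it in every 15 Gy array. By size, 6 members were at least 1.5-fold below the control in every 15 Gy array (12.2%, against 7.20% of all genes), namely acsl6, elovl4b, fads2, fdft1, hmgcs1 and insig1. At least 1.5-fold above it were elovl1b, elovl7a and stard14, 3 members (6.12%, against 11.7% of all genes). Without 15 Gy replicate 2, acadvl and elovl6l joined them, which made 5, while the share of all genes became 16.8%. In all 4 irradiated arrays, the same 6 were lower by this size (12.2%, against 6.78% of all genes), and elovl1b and stard14 were higher (4.08%, against 9.99% of all genes).

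**Figure D1:**
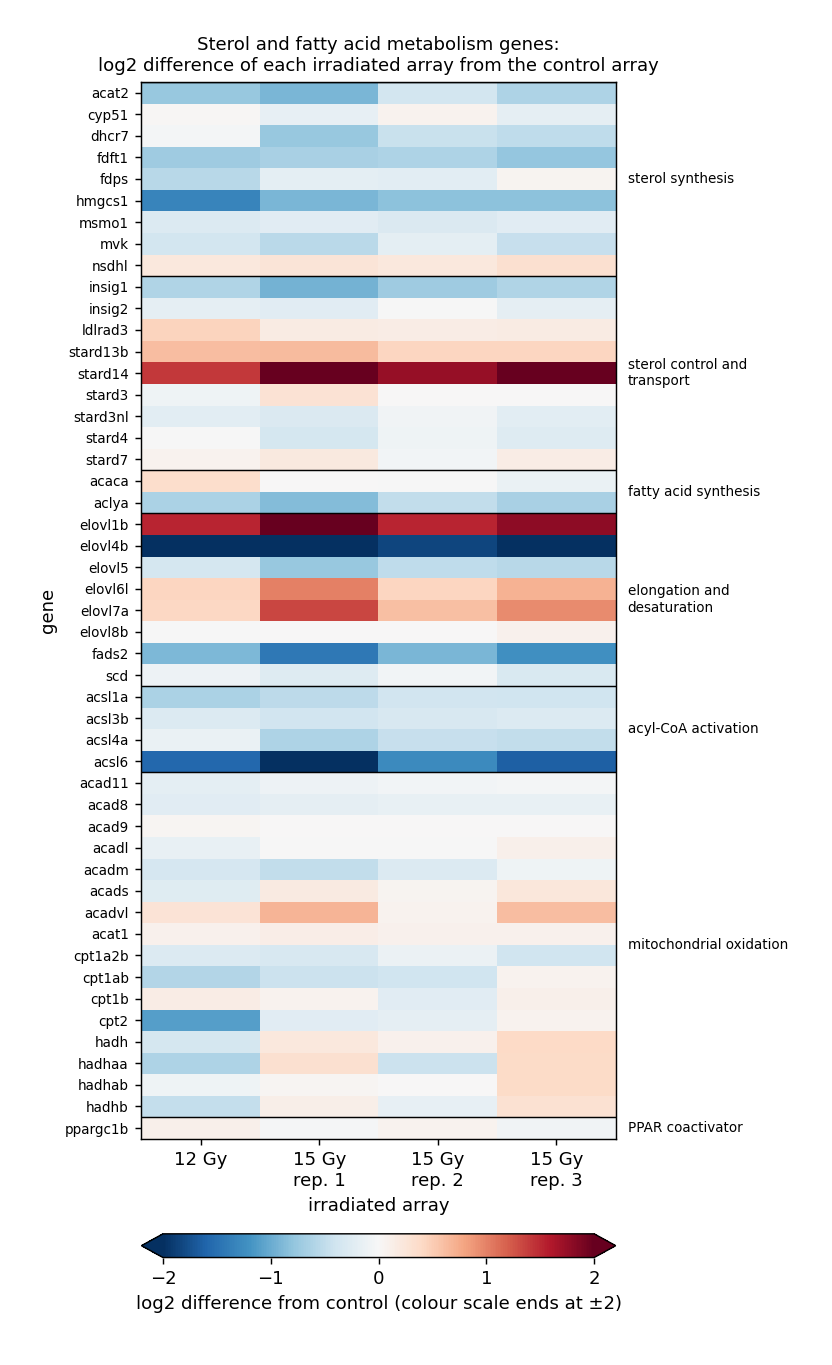
Colour gives the log2 difference of each irradiated array (columns) from the control array for the 49 genes (rows), grouped by role, with the scale ending at ±2. The row of elovl4b is the darkest blue, those of stard14 and elovl1b are the darkest red, and most sterol synthesis rows are pale blue in all 4 irradiated arrays.

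In the 12 Gy array, 0 members passed the adjusted threshold against the control (smallest adjusted p = 0.203 with limma), as did 0% of all genes. At an unadjusted p of 0.05, 4 members were lower (8.16%, against 7.94% of all genes), namely acsl1a, cpt2, fdft1 and hmgcs1. As many were higher, elovl1b, ldlrad3, stard13b and stard14 (8.16%, against 10.4% of all genes). Here 11 members were at least 1.5-fold below the control (22.4%, against 11.0% of all genes), and 3 were at least 1.5-fold above it (6.12%, against 13.8% of all genes). The 3 were elovl1b, stard13b and stard14. The 11 included the 6 genes that were lower by this size in every 15 Gy array, together with acat2, aclya, acsl1a, cpt2 and hadhaa. With 16 added to each value before the logarithm, which shrinks differences of dim probe sets, the 11 became 6. The share of all genes under that setting is not given here, so the drop cannot be called particular to the members.

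Sterol synthesis genes were mostly lower after irradiation, led by the gene of HMG-CoA synthase, the enzyme that makes the precursor of mevalonate. The log2 intensity of hmgcs1 was 8.25 in the control, 6.93 at 12 Gy and 7.34, 7.43 and 7.42 in replicates 1, 2 and 3 at 15 Gy. All irradiated arrays lay below the control, and the 12 Gy array was the lowest. The transcript was thus 1.80-fold lower at 15 Gy (7.39 ± 0.05, SD, n = 3) than in the control (log2 difference −0.85, SE 0.08, limma adjusted p = 0.167), and 2.49-fold lower at 12 Gy (adjusted p = 0.203). It was higher at 15 Gy than at 12 Gy by 0.47 on the log2 scale (SE 0.08, adjusted p = 0.520).

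Squalene synthase, encoded by fdft1, takes farnesyl diphosphate into the branch that leads only to sterols. Its log2 intensity was 6.57 in the control, 5.86 at 12 Gy and 5.92, 5.94 and 5.79 in the arrays at 15 Gy. The 4 irradiated arrays lay close together, all below the control, and the difference was −0.68 at 15 Gy (SE 0.10, limma adjusted p = 0.167) and −0.71 at 12 Gy (adjusted p = 0.214). The thiolase gene acat2, at the entry of the route, stood at 8.47 in the control, 7.71 at 12 Gy and 7.57, 8.10 and 7.85 at 15 Gy. It too was lower in every irradiated array, by 0.63 at 15 Gy and 0.76 at 12 Gy on the log2 scale, but with a wider spread (SE 0.25, adjusted p = 0.221 at 15 Gy).

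Dhcr7, the reductase that finishes cholesterol, showed another pattern. Log2 intensities of dhcr7 were 7.49 in the control, 7.45 at 12 Gy and 6.73, 7.04 and 6.98 at 15 Gy. The 12 Gy array was close to the control, and all 15 Gy arrays lay below both. The 15 Gy arrays differed from the control by −0.57 (SE 0.16, limma adjusted p = 0.179) and from the 12 Gy array by −0.54 (SE 0.16, adjusted p = 0.545). The mevalonate kinase gene mvk (−0.40 at 15 Gy, −0.37 at 12 Gy) and the methylsterol oxidase gene msmo1 (−0.24 and −0.27) were also below the control in every irradiated array. The probe set of mvk was dim, at 4.25 or lower in all arrays.

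The other members of the route were nsdhl, which was higher, and fdps and cyp51, whose 15 Gy arrays overlapped the control. The sterol dehydrogenase gene nsdhl, at 4.56 in the control, 4.77 at 12 Gy and 4.83, 4.77 and 4.88 at 15 Gy, was above the control in all irradiated arrays (0.26 at 15 Gy, SE 0.08, limma adjusted p = 0.187; 0.21 at 12 Gy). The farnesyl diphosphate synthase gene fdps was 6.33 in the control, 5.78 at 12 Gy and 6.13, 6.13 and 6.39 at 15 Gy, so that the 15 Gy arrays overlapped the control and only the 12 Gy array stood apart. Lanosterol demethylase is encoded by cyp51, which stood at 6.08 in the control, 6.11 at 12 Gy and 5.93, 6.15 and 5.91 at 15 Gy. Its arrays overlapped, and the difference was −0.09 at 15 Gy with a 95% interval of −0.52 to 0.34, and 0.03 at 12 Gy. That small value at 12 Gy turned to −0.031 after another quantile normalization and to −0.015 after median centring. Of the 9 genes of the route, 6 lay below the control in all 4 irradiated arrays (66.7%, against 32.7% of all genes) and 1 above it in all 4 (11.1%, against 35.8% of all genes).

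**Figure D2:**
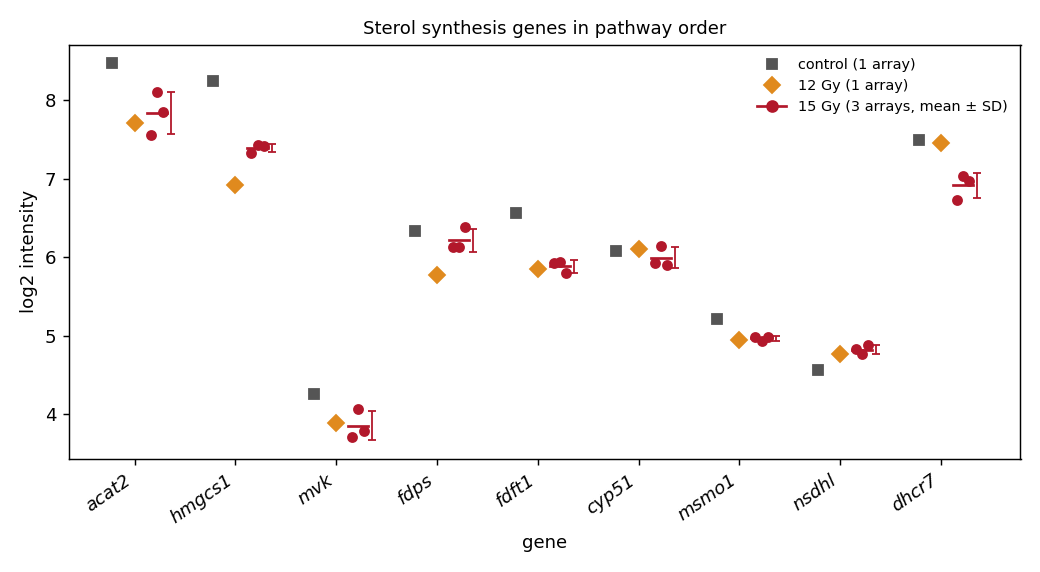
Log2 intensity of the 9 sterol synthesis genes in pathway order, with a square for the control array, a diamond for 12 Gy and circles for the 3 arrays at 15 Gy (line and bar, mean ± SD). The largest gaps from the control are those of hmgcs1, fdft1 and acat2, and in dhcr7 the 12 Gy array stays near the control while all 15 Gy arrays lie below both. Levels of different genes are not comparable.

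Among genes grouped by symbol under sterol control and transport, insig1 was lower and stard14 higher after irradiation. The symbol alone placed a gene here, and its part in sterol transport was not examined. Insig1 retains the SREBP complex in the endoplasmic reticulum, and in mammals its gene is itself switched on by SREBP. Log2 intensities of insig1 were 7.70 in the control, 7.10 at 12 Gy and 6.75, 6.99 and 7.10 at 15 Gy. Every irradiated array lay below the control, by 0.75 on average at 15 Gy (SE 0.18, limma adjusted p = 0.169) and by 0.60 at 12 Gy (adjusted p = 0.314). This held for the brightest of 3 probe sets, whereas the others differed from the control by −0.08 and −0.02 at 15 Gy. The related gene insig2 differed by −0.14 (95% interval −0.53 to 0.26).

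The transcript of stard14, which encodes a protein with a lipid-binding START domain, had the largest positive difference of all members at 15 Gy. Its log2 intensity was 3.91 in the control, 5.33 at 12 Gy and 6.17, 5.66 and 6.07 at 15 Gy. All irradiated arrays were above the control and all 15 Gy arrays above the 12 Gy array. The transcript was 4.16-fold higher at 15 Gy than in unirradiated larvae (log2 difference 2.06, SE 0.26, limma adjusted p = 0.167) and 2.67-fold higher at 12 Gy (adjusted p = 0.233). The control value lay below the lower quartile of that array (4.70), and RMA, the processing of these arrays, can compress differences of such dim probe sets. The cholesterol carrier gene stard4 stood at 7.52 in the control, 7.51 at 12 Gy and 7.17, 7.44 and 7.26 at 15 Gy. All lay below the control, the 12 Gy array barely, and stard4 differed by −0.23 at 15 Gy (SE 0.14) and by −0.01 at 12 Gy. The endosomal gene stard3nl stood at 5.33 in the control, 5.12 at 12 Gy and 5.04, 5.25 and 5.12 at 15 Gy, all below the control by a small margin (−0.19 at 15 Gy, SE 0.12). For stard3 and stard7, genes of endosomal and mitochondrial lipid transfer, the difference was 0.10 each at 15 Gy. The members stard13b and ldlrad3, named above as sharing a name but not the chemistry, were above the control in all irradiated arrays. The values of stard13b were 6.87 in the control, 7.49 at 12 Gy and 7.50, 7.30 and 7.30 at 15 Gy, a difference of 0.50 at 15 Gy (SE 0.12, limma adjusted p = 0.17) and 0.62 at 12 Gy. Those of ldlrad3, a dim probe set, were 3.78 in the control, 4.23 at 12 Gy and 3.94, 3.93 and 3.94 at 15 Gy, so that the 12 Gy array was the highest.

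The pair of fatty acid synthesis genes did not move together. ATP citrate lyase supplies cytosolic acetyl-CoA to both sterols and fatty acids, and its gene aclya stood at 6.67 in the control, 6.04 at 12 Gy and 5.79, 6.18 and 6.02 at 15 Gy. All irradiated arrays were below the control, and the difference was −0.67 at 15 Gy (SE 0.19, limma adjusted p = 0.177) and −0.63 at 12 Gy (adjusted p = 0.317). Acetyl-CoA carboxylase, encoded by acaca, commits acetyl-CoA to fatty acids. That gene stood at 7.43 in the control, 7.78 at 12 Gy and 7.43, 7.41 and 7.29 at 15 Gy. Its 12 Gy array was thus the highest, and the 15 Gy arrays differed from the control by −0.05 with a 95% interval of −0.35 to 0.24.

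The elongase genes divided by direction, and they held both extremes of fatty acid metabolism. Elovl4 enzymes make very long-chain polyunsaturated fatty acids and are known from photoreceptors. The log2 intensity of elovl4b was 10.24 in the control, 7.12 at 12 Gy and 5.83, 8.40 and 7.99 at 15 Gy. Every irradiated array was far below the control, but the 15 Gy arrays spread over more than 2 log2 units, with replicate 1 the lowest and the 12 Gy array between them. The transcript was 7.15-fold lower at 15 Gy (7.40 ± 1.38, SD, n = 3) than in the control, with a log2 difference of −2.84 and a 95% interval of −6.71 to 1.04 (limma adjusted p = 0.243). Without replicate 1 the transcript was 4.14-fold lower at 15 Gy. At 12 Gy it was 8.70-fold lower (adjusted p = 0.396).

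Photoreceptor markers moved with elovl4b. Of 14 such genes, listed after the values had been seen, 8 were measured. All 8 lay below the control in every 15 Gy array, as did 36.5% of all genes. Their summed linear intensity was 42911 in the control, 4575 at 12 Gy and 1014, 15425 and 10100 in replicates 1, 2 and 3 at 15 Gy. The list's median log2 difference from the control was −2.99 at 12 Gy and −5.18, −1.44 and −2.02 at 15 Gy, which put the arrays in the order that elovl4b did. The dimmest marker, prph2b, lay between 5.50 and 6.19. The part of these cells, or of RNA quality, in the value of elovl4b was not tested.

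In the opposite direction, elovl1b, of the family members that lengthen saturated and monounsaturated chains, stood at 7.24 in the control, 8.76 at 12 Gy and 9.27, 8.76 and 9.04 at 15 Gy. All irradiated arrays were above the control, and the transcript was 3.43-fold higher at 15 Gy (log2 difference 1.78, SE 0.24, limma adjusted p = 0.167) and 2.86-fold higher at 12 Gy (adjusted p = 0.221). With all 4 irradiated arrays taken as 1 group, 6 probe sets of the array passed, and elovl1b and fdft1, both at an adjusted p of 0.0727, came closest among the members. The values of elovl7a were 7.09 in the control, 7.50 at 12 Gy and 8.43, 7.69 and 8.04 at 15 Gy. It was 1.95-fold higher at 15 Gy (SE 0.34 on the log2 scale, limma adjusted p = 0.202), with replicate 1 the highest. The gene elovl6l, at 4.43 in the control, 4.86 at 12 Gy and 5.44, 4.85 and 5.13 at 15 Gy, was likewise above the control in every irradiated array (0.71 at 15 Gy, SE 0.28; 0.43 at 12 Gy).

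Epidermal markers were mostly higher where elovl1b, elovl7a and stard14 were higher. Of 16 epidermal genes, also listed after the values had been seen, 15 were measured. Above the control in every 15 Gy array lay 14 of them, as did 41.0% of all genes. At 12 Gy 11 of the 15 lay above the control, and krt4, krt5, krt91 and ppl lay below it. The share of all genes above the control at 12 Gy is not given here. The summed intensity of the 15 was 7478 in the control, 11355 at 12 Gy and 25420, 16618 and 23655 at 15 Gy. The median log2 difference was 1.0 at 12 Gy and 1.88, 1.16 and 1.64 at 15 Gy, the same order of arrays as for elovl7a and stard14. Evpla, the dimmest marker, lay between 2.74 and 4.26. The 5′ to 3′ ratios of actin and GAPDH were likewise lowest in the control array and highest in 15 Gy replicate 1. The part of epidermal cells, or of RNA quality, in these values was not tested.

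Polyunsaturated fatty acids are made in zebrafish by the desaturase of fads2 working with Elovl5, and both genes were lower. The fads2 transcript had a log2 intensity of 6.27 in the control, 5.37 at 12 Gy and 4.83, 5.36 and 5.05 at 15 Gy. No irradiated array reached the control, and the transcript was 2.28-fold lower at 15 Gy (log2 difference −1.19, SE 0.25, limma adjusted p = 0.167) and 1.86-fold lower at 12 Gy (adjusted p = 0.305). The values of elovl5 were 4.60 in the control, 4.25 at 12 Gy and 3.84, 4.10 and 4.05 at 15 Gy, a difference of −0.61 at 15 Gy (SE 0.14, adjusted p = 0.169) in a dim probe set. Stearoyl-CoA desaturase, which makes monounsaturated fatty acids, differed less. Its gene scd stood at 5.08 in the control, 4.97 at 12 Gy and 4.82, 5.02 and 4.78 at 15 Gy, all below the control, with a difference of −0.20 at 15 Gy (95% interval −0.62 to 0.21). The gene elovl8b differed by 0.03 (95% interval −0.22 to 0.27) at 15 Gy.

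**Figure D3:**
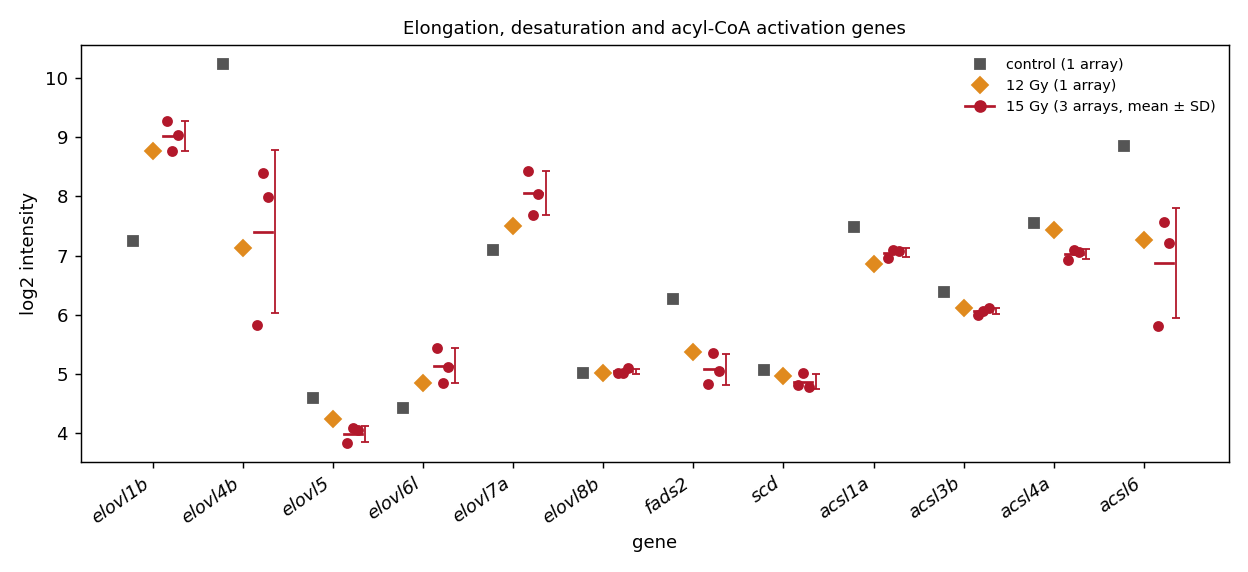
Log2 intensity of the 8 elongation and desaturation genes and the 4 acyl-CoA synthetase genes, with a square for the control array, a diamond for 12 Gy and circles for the 3 arrays at 15 Gy (line and bar, mean ± SD). The genes elovl4b and acsl6 show the widest spread among 15 Gy arrays, elovl1b and elovl7a lie above the control, and all 4 acsl genes lie below it. Levels of different genes are not comparable.

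All 4 acyl-CoA synthetase genes were below the control in every irradiated array, a position shared by 32.7% of all genes. In mammals Acsl6 is the brain form, which favours docosahexaenoic acid. Its fish gene acsl6 stood at 8.84 in the control, 7.27 at 12 Gy and 5.82, 7.57 and 7.22 at 15 Gy. As with elovl4b, replicate 1 was the lowest and the other irradiated arrays were closer together. The transcript was 3.93-fold lower at 15 Gy (log2 difference −1.97, SE 0.85, limma adjusted p = 0.236) and 2.97-fold lower at 12 Gy (adjusted p = 0.486). All 10 neuronal markers of a list lay below the control in every 15 Gy array, as did 36.5% of all genes. The summed intensity of the 10 markers was 19469 in the control, 7748 at 12 Gy and 2965, 8999 and 6408 at 15 Gy. Their median log2 difference (−1.42 at 12 Gy and −2.79, −1.14 and −1.52 at 15 Gy) ranked the arrays as acsl6 did. The dimmest, gad1b, lay between 6.36 and 10.64. From the control to replicate 1, the 5′ to 3′ ratio of actin placed the arrays in this order too, with replicate 2 (0.0350) and 12 Gy (0.0354) nearly equal. That of GAPDH did not, since 12 Gy (0.177) came before replicate 2 (0.189). The part of neurons, or of RNA quality, in the value of acsl6 was not tested.

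The other synthetase genes differed less but with a small spread. The gene acsl4a, whose mammalian enzyme prefers arachidonic acid, stood at 7.56 in the control, 7.43 at 12 Gy and 6.93, 7.10 and 7.06 at 15 Gy. It was lower at 15 Gy than in the control by 0.53 (SE 0.10, limma adjusted p = 0.167) and lower than at 12 Gy by 0.40 (adjusted p = 0.534). For acsl1a, the values were 7.49 in the control, 6.86 at 12 Gy and 6.97, 7.10 and 7.08 at 15 Gy. The difference was −0.44 at 15 Gy (SE 0.09, adjusted p = 0.167), and all 5 probe sets of the gene were lower at 15 Gy, between −0.30 and −0.79. At 12 Gy the brightest differed by −0.63, but the others ranged from −0.50 to 0.13. The gene acsl3b, of the lipid droplet form, differed by −0.33 at 15 Gy (SE 0.08, adjusted p = 0.172) and by −0.27 at 12 Gy.

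Genes of mitochondrial oxidation had differences from the control between −0.29 and 0.46 at 15 Gy. In the 12 Gy array, 12 of the 16 lay below the control, and acadvl, cpt1b, acat1 and acad9 lay above it. The share of all genes below the control at 12 Gy is not given here, so this count cannot be called particular to the group. At 12 Gy cpt2 alone of the 16 passed an unadjusted p of 0.05 with limma, as a lower gene (6.25%, against 7.94% of all genes). After adjustment 0 passed, as did 0% of all genes. Of the 16, 4 had all 15 Gy arrays above the control (acads, acadvl, acat1 and hadh; 25%, against 41.0% of all genes) and 4 had them all below it (acad11, acad8, acadm and cpt1a2b; 25%, against 36.5% of all genes). After cyclic loess normalization the mean differences of acat1 and acad11 turned sign, to −0.038 and 0.024. None of the 16 passed the test with limma at 15 Gy, adjusted or unadjusted. Among all genes, 17.4% were higher and 10.4% lower at an unadjusted p of 0.05, and 0% passed after adjustment. In 10 of the 16 genes the 12 Gy array lay below all 15 Gy arrays (62.5%, against 31.3% of all genes). In 2 it lay above them all (12.5%, against 21.1% of all genes). For 15 Gy against 12 Gy, limma gave an adjusted call for 0 members in either direction (0% of all genes), and at an unadjusted p of 0.05 acads, cpt2 and hadh were higher. With hmgcs1 they made 4 members (8.16%, against 5.35% of all genes), and 4 members outside this group were lower, acaca, acsl4a, dhcr7 and ldlrad3 (8.16%, against 3.51% of all genes).

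Cpt2 releases the acyl chain from carnitine on the inner mitochondrial membrane. The log2 intensity of cpt2 was 7.37 in the control, 6.26 at 12 Gy and 7.15, 7.18 and 7.43 at 15 Gy. The 12 Gy array stood alone, and the 15 Gy arrays overlapped the control. The transcript was higher at 15 Gy than at 12 Gy by 0.99 (SE 0.16, limma adjusted p = 0.520) and lower at 12 Gy than in the control by 2.16-fold (adjusted p = 0.215). It was the member, of 49, at least 1.5-fold above the 12 Gy array in every 15 Gy array (2.04%, against 1.36% of all genes), and 0 members were as far below it (0%, against 0.796% of all genes). Another, dimmer probe set of cpt2 differed by −0.03 at 12 Gy and by −0.27 at 15 Gy from the control. The carnitine transferase gene of the outer membrane, cpt1ab, stood at 6.89 in the control, 6.31 at 12 Gy and 6.46, 6.49 and 6.96 at 15 Gy. There too the 12 Gy array was the lowest, and the 15 Gy arrays reached on both sides of the control. The related gene cpt1a2b, a dim probe set, stood at 4.55 in the control, 4.28 at 12 Gy and 4.23, 4.43 and 4.16 at 15 Gy, all below the control. For cpt1b the difference was −0.01 at 15 Gy and 0.15 at 12 Gy.

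Within the mitochondrial spiral, the trifunctional protein genes hadhaa, hadhab and hadhb and the short-chain dehydrogenase gene hadh were lowest at 12 Gy. For hadhaa, the values were 6.86 in the control, 6.25 at 12 Gy and 7.19, 6.44 and 7.24 at 15 Gy. The 15 Gy arrays lay on both sides of the control, and the mean difference of 0.10 turned to −0.020 without 15 Gy replicate 1 and to −0.048 without replicate 3. The gene hadh stood at 7.96 in the control, 7.61 at 12 Gy and 8.16, 8.04 and 8.35 at 15 Gy, above the control at 15 Gy by 0.23 (SE 0.16) and above the 12 Gy array by 0.57 (SE 0.16, limma adjusted p = 0.537). The differences of hadhb and hadhab from the 12 Gy array were 0.56 (SE 0.23) and 0.22 (SE 0.21).

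The acyl-CoA dehydrogenases, which open each round of oxidation for chains of a given length, did not share a direction. The medium-chain gene acadm stood at 9.29 in the control, 8.95 at 12 Gy and 8.80, 9.02 and 9.21 at 15 Gy. All irradiated arrays were below the control, by 0.29 on average at 15 Gy (SE 0.20, limma adjusted p = 0.399). The very long-chain gene acadvl stood at 8.19 in the control, 8.47 at 12 Gy and 8.88, 8.27 and 8.81 at 15 Gy. It was above the control in all of them, by 0.46 at 15 Gy (SE 0.31, adjusted p = 0.392), with replicate 2 close to the control. The short-chain gene acads stood at 6.30 in the control, 6.06 at 12 Gy and 6.49, 6.35 and 6.54 at 15 Gy, with the 12 Gy array the lowest. It was higher at 15 Gy than at 12 Gy by 0.40 (SE 0.11, adjusted p = 0.537) and differed from the control by 0.16. For acad8 the values were 7.01 in the control, 6.79 at 12 Gy and 6.83, 6.87 and 6.87 at 15 Gy, close together and below the control. The genes acad11, acad8, acad9, acadl and acat1, differed from the control by −0.16 to 0.10 at 15 Gy and by −0.22 to 0.09 at 12 Gy, and acad9 had identical values in the control and all 15 Gy arrays.

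**Figure D4:**
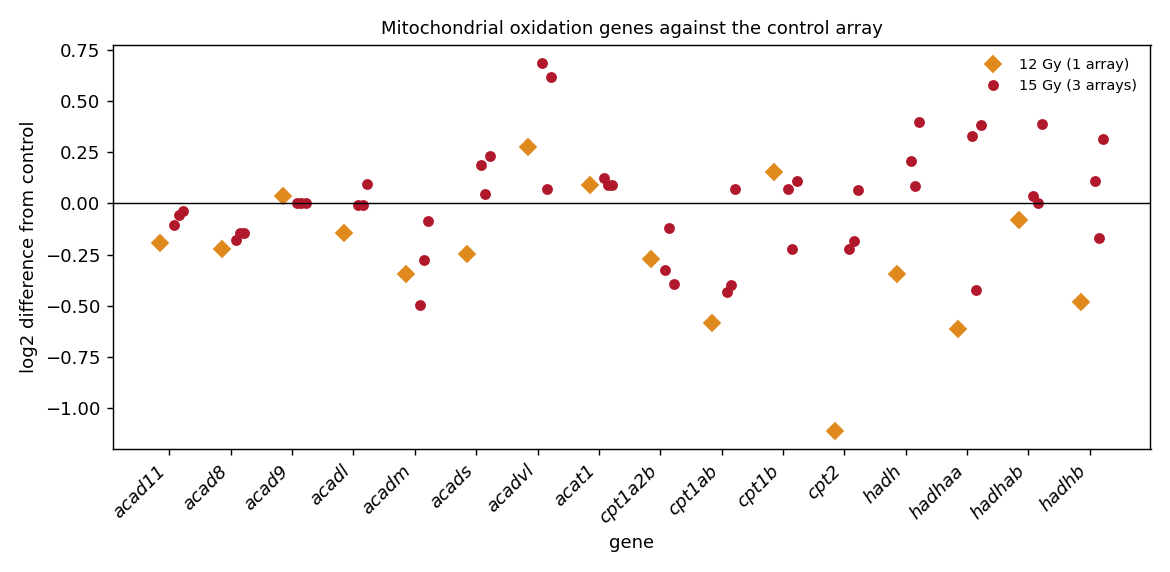
Log2 difference from the control array for the 16 mitochondrial oxidation genes, with a diamond for the 12 Gy array and circles for the 3 arrays at 15 Gy. The 12 Gy diamond lies below all circles in 10 genes, farthest for cpt2, and the circles scatter around 0.

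In 5 of 8 measured liver markers the 12 Gy array lay below all 15 Gy arrays, as in 31.3% of all genes, and in fabp10a, cp and fga it did not. It lay there in 12 of 15 epidermal, 2 of 7 intestinal and 0 of 8 skeletal muscle markers. The summed intensity of the 8 liver markers, of 10 listed, was 2744 in the control, 3425 at 12 Gy and 7024, 6126 and 8294 at 15 Gy. The dimmest, ambp, lay between 5.97 and 6.83. For 8 measured of 10 skeletal muscle genes, the sum at 12 Gy (93141) lay within the range at 15 Gy (93317, 78618 and 95456). The part of these tissues in the mitochondrial genes was not tested. The coactivator gene ppargc1b, a member of the PGC-1 family that drives oxidative genes in mammals, differed by −0.01 at 15 Gy (95% interval −0.28 to 0.27) and by 0.10 at 12 Gy. Its dimmer probe set gave −0.24 and 1.05, so its probe sets differed at 12 Gy.

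Read by role, the medians of sterol synthesis, fatty acid synthesis and fatty acid activation lay below the control in each irradiated array. The median log2 difference of the 9 sterol synthesis genes was −0.37 at 12 Gy and −0.54, −0.28 and −0.46 in replicates 1, 2 and 3 at 15 Gy. For the 4 acyl-CoA synthetase genes it was −0.45 at 12 Gy and −0.57, −0.42 and −0.45 at 15 Gy. The pair of fatty acid synthesis genes had −0.14 at 12 Gy and −0.44, −0.25 and −0.39 at 15 Gy. The 16 mitochondrial genes had −0.23 at 12 Gy and 0.02, −0.09 and 0.09 at 15 Gy. The elongation and desaturation genes, which went both ways, had −0.06 at 12 Gy and −0.13, −0.03 and −0.11 at 15 Gy. For sterol control and transport genes the median was −0.01 at 12 Gy and 0.17, −0.00 and 0.00 at 15 Gy. In replicate 1 this median was the value of ldlrad3, a dim member that shares a name with the pathway but not its chemistry. Over all 8793 genes the median was 0.00 at 12 Gy and 0.03, 0.00 and 0.00 at 15 Gy. These medians share the control array and were not tested. Those of sterol synthesis and of activation placed the 5 arrays in the same order, downward from the control. The median of the neuronal markers did so too, and the actin ratio did upward. For sterol synthesis, the median at 12 Gy and in replicates 1 and 3 was the value of mvk, a dim probe set. Other genes of the route ranked the arrays otherwise, such as hmgcs1, lowest at 12 Gy, and fdft1, lowest in replicate 3. Without the dimmest 30% of probe sets, the sterol synthesis median at 12 Gy was −0.55. For activation, 12 Gy (−0.451) and replicate 3 (−0.453) were nearly equal, and the 12 Gy median was −0.26 with probe sets averaged. The GAPDH ratio had another order, with the 12 Gy array (0.177) before replicate 2 (0.189). Glia and myelin markers also included lower genes, since 5 of 7 measured, of 10 listed, lay below the control in every 15 Gy array. So did 36.5% of all genes, and sox10 and gfap lay above the control in every 15 Gy array. The summed intensity of the 7 was 13654 in the control, 8040 at 12 Gy and 3227, 7504 and 6343 at 15 Gy. Their median log2 difference was −0.39 at 12 Gy and −1.77, −0.57 and −0.94 at 15 Gy. It put 12 Gy nearest the control, unlike the median of the neuronal markers. The dimmest, olig2, lay between 4.67 and 6.45. The part of nervous tissue, or of RNA quality, in the medians of sterol synthesis and activation was not tested.

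**Figure D5:**
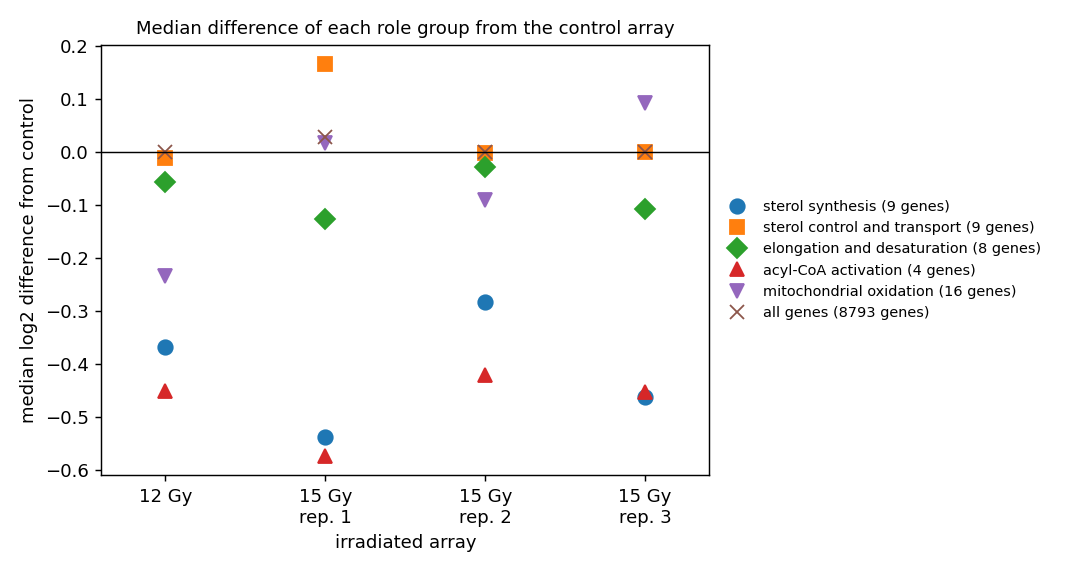
Median log2 difference from the control array (vertical axis) in the 12 Gy array and the 3 arrays at 15 Gy, for 5 role groups and for all genes. Sterol synthesis and acyl-CoA activation lie between −0.28 and −0.57 in all arrays, and mitochondrial oxidation is lowest at 12 Gy (−0.23).

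Spread among the 15 Gy pools differed between members. The SD over the 3 arrays had a median of 0.14 in the 49 genes, against 0.15 over all genes, and reached 1.38 in elovl4b and 0.93 in acsl6. Replicate 1 was the lowest of the 15 Gy arrays, alone or tied, in 24 members (49.0%), against 32.2% of all genes. Among the 24, it was tied in acad9, acadl and elovl8b. It was alone the lowest in all 4 acyl-CoA synthetase genes. In 14 members some arrays had identical values, and in 7 of them 15 Gy arrays were identical to each other, which lowers the estimated spread. Such ties were not confined to the members. Among all 8793 genes, 991 had 15 Gy arrays identical to each other. Some arrays had identical values in 3879 probe sets, where 15502 were tested.

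Other genes of these routes were taken from lists chosen by role, though with earlier results of these data known. Of them, 0 passed the adjusted threshold with limma at 15 Gy. At an unadjusted p of 0.05, 3 of 8 measured sterol transport and turnover genes were higher and 0 lower, where 17.4% of all genes were higher and 10.4% lower. Among these, apobb.1, which encodes the structural protein of lipoproteins, was 3.25-fold higher at 15 Gy than in unirradiated larvae (SE 0.37 on the log2 scale). The lysosomal cholesterol exporter gene npc1 was 2.14-fold higher (SE 0.22), and the lipoprotein receptor gene vldlr was 1.96-fold lower (SE 0.32). Of 10 measured lipogenesis genes, 1 was higher and 3 lower at that p, against the same shares of all genes. The mitochondrial citrate carrier gene slc25a1a, which supplies ATP citrate lyase with citrate, was 2.71-fold lower (SE 0.67) and the triglyceride synthesis gene dgat1a 1.44-fold lower (SE 0.12). The probe set of dgat1a was dim, between 2.99 and 3.64 in all arrays. The chain elongation gene hsd17b12a was 2.22-fold higher (SE 0.25), and the malic enzyme gene me1 was 1.69-fold higher (SE 0.33). Of 23 measured oxidation and fatty acid binding genes, 3 were higher and 2 lower at that p, again against 17.4% and 10.4% of all genes. The electron transfer flavoprotein gene etfb was 1.56-fold higher (SE 0.16), while the values of the binding protein genes fabp1b.1 (0.56), fabp7a (−0.75) and fabp10a (−0.76) had SEs of 0.47, 0.51 and 0.95. In that list 11 of 23 genes lay above the 12 Gy array in every 15 Gy array, against 31.3% of all genes.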

How the data were processed

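RNA was measured on Affymetrix zebrafish arrays from 6 µg of total RNA per pool, labelled as cRNA, per the labels' protocols. The authors deposited 1 intensity per probe set and array, made with RMA per the submitters' processing notes. RMA corrects background, normalizes quantiles and summarizes probes. The values lie on a linear scale, so RMA log2 values appear to have been returned to it, which no label states. The RMA version is not given in the sources used here. RMA can shrink differences of dim probe sets. Scanner files were not used here, so detection could not be called, and the labels name no batch.

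Intensities were turned to log2, and 115 control probe sets were left out, after which 15502 remained and were tested. Names came from the platform annotation, updated by identifier with the RefSeq table of GRCz12tu (10711 of 10795 probe sets with 1 symbol matched; 135 had several symbols and 4572 were not listed). The brightest probe set represented a gene. A limma 3.58.1 model (R 4.3.3) with 1 mean for each group used all 5 arrays, with 2 residual degrees of freedom and 1.20 from the prior, and 3 comparisons were made, two-sided. Figures were drawn in Python 3.11.15 (pandas 2.3.3, matplotlib 3.10.9). The fit was tested on simulated data. Members and lists were chosen with earlier results of these data known. Genes were given with their value in every array where a set of key enzymes named them, or where they were among the 3 largest differences each way in a role with all 15 Gy arrays on the same side of the control, and for other genes of the routes the 2 largest each way. A further member is described by its difference or its count, or by its arrays where an overlap or a dose was at issue. Alternatives were other normalizations, a filter on the dimmest 30%, another prior, the mean of probe sets, an added 16, leaving out each 15 Gy array, and all irradiated arrays as 1 group.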

Additional observations from a re-analysis of the deposited data

How the results depend on the processing

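No member passed the adjusted threshold of limma in any comparison under any alternative run, including all 4 irradiated arrays as 1 group. No paired analysis was possible because the groups share only replicate number 1. Of the differences of the 49 members from the control, these turned direction, and the cause was not tested. At 12 Gy, cyp51 (−0.031) did after quantile normalization, cyp51 (−0.015) and acad9 (−0.0074) after median centring, and elovl8b (0.043) after cyclic loess. At 15 Gy, acadl (−0.013) and cpt1b (0.019) did after quantile normalization, and acad11 (0.024), acadl (−0.057), acat1 (−0.038), cpt1b (0.069), hadhb (−0.045) and stard7 (−0.0064) after cyclic loess. So did acadl (−0.025) and elovl8b (−0.025) after median centring, and elovl8b (−0.024) and fdps (0.040) with probe sets averaged. With each 15 Gy replicate left out in turn, the difference at 15 Gy ran from −0.048 to 0.35 for hadhaa, −0.0060 to 0.044 for acadl, −0.076 to 0.089 for cpt1b, −0.030 to 0.21 for hadhb and −0.043 to 0.021 for ppargc1b. The count of members at least 1.5-fold higher in every 15 Gy array ranged from 3 to 5 when a replicate was left out, and the share of all genes from 11.7% to 16.8%. The count lower at 12 Gy became 6 with 16 added, without a share of all genes to set beside it. The sterol synthesis median was −0.57 at 15 Gy and −0.55 at 12 Gy without the dimmest 30% of probe sets, and −0.20 and −0.19 with 16 added. The elongation and desaturation median at 15 Gy became 0.0043 after cyclic loess, −0.14 after median centring and 0.028 without the dimmest probe sets, and at 12 Gy −0.0031 without them. Sterol control genes had −0.0064 after cyclic loess and −0.021 without the dimmest probe sets at 15 Gy, and the synthetase median was −0.26 at 12 Gy with probe sets averaged. Without the dimmest probe sets 41 members were left, and the cause of the other shifts was not tested. The promoter motif comparison that had been planned was not run. The lone control and 12 Gy arrays limit every comparison, and dim probe sets limit mvk, ldlrad3, elovl5, acad9 and cpt1a2b.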

Other observations

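Genes of lipoprotein particles, which carry yolk and dietary lipid between tissues, differed among themselves. The log2 intensity of apoa1a, which encodes the main protein of high-density lipoprotein, was 8.79 in the control, 9.57 at 12 Gy and 11.32, 10.54 and 11.02 at 15 Gy. All irradiated arrays were above the control, and the transcript was 4.49-fold higher at 15 Gy (SE 0.36 on the log2 scale, limma adjusted p = 0.167). For apoa2 the values were 10.84 in the control, 10.70 at 12 Gy and 12.16, 12.10 and 12.49 at 15 Gy, so that only the 15 Gy arrays were above the control. The gene was 2.64-fold higher at 15 Gy (SE 0.20, adjusted p = 0.167). The apolipoprotein E gene apoeb had 9.28 in the control, 11.69 at 12 Gy and 12.13, 11.50 and 12.05 at 15 Gy, all above the control, and was 6.13-fold higher at 15 Gy. The gene apoc1 was 2.25-fold higher at 15 Gy and 1.36-fold higher at 12 Gy. The transfer protein gene mttp, which loads lipid onto apolipoprotein B, differed by −0.07 at 15 Gy (SE 0.10) and by −0.17 at 12 Gy. The intestinal gene apoa4b.1 stood at 8.83 in the control, 8.28 at 12 Gy and 9.18, 9.40 and 10.23 at 15 Gy, lowest at 12 Gy. These genes were chosen for description after their values had been seen, and none passed the adjusted threshold.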
